A study of Rattus norvegicus with 4 samples.

Results

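Matrix metalloproteinases (MMPs), the related ADAM, ADAMTS and ADAMTS-like proteins and their tissue inhibitors (TIMPs) were followed in neonatal rat ventricular cardiomyocytes by ribosome profiling. Members were taken by gene symbol, with 1 annotated coding ORF per gene, the one with the most footprints over all libraries. The rule found 50 genes among 13694 genes with an annotated ORF. They comprised 3 TIMPs, 10 soluble and 6 membrane-attached MMPs, 11 ADAMs, 16 ADAMTS and 4 ADAMTS-like genes. The cells came from the cardiac ventricle of Sprague-Dawley rats at postnatal day 2. For 2 libraries the cells had received 20 µM phenylephrine (PE, an α1-adrenergic agonist that drives cardiomyocyte growth) for 24 h, and the other 2 libraries are labelled as untreated control, although a treatment note shared by all 4 names PE. Cultures of both groups had been pre-plated to remove other cells and were grown with fetal bovine serum. Each value is a count of ribosome-protected RNA fragments on an ORF, so it carries both the amount of mRNA and how heavily it was translated, and these were not separated here.

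MMPs are zinc endopeptidases that cut collagens, elastin, proteoglycans and other proteins outside the cell, and membrane-type MMPs do so at the cell surface. ADAMs are membrane proteases best known for releasing growth factors, cytokines and receptors from the cell surface. ADAMTS proteases are secreted and cut proteoglycans and procollagens, while ADAMTS-like proteins have no protease domain and bind microfibrils. TIMPs block the active site of MMPs and, for some family members, of ADAMs and ADAMTS proteases. In the heart these genes are expressed mostly by fibroblasts, vascular cells and immune cells, and to a lesser degree by cardiomyocytes.

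The libraries held 12117629 and 12537740 footprints for PE and 11446574 and 13827599 for control. Members took 0.655% and 0.666% of footprints in PE libraries and 0.707% and 0.708% in control libraries. Of the members' P-sites (where the peptidyl site of a ribosome sat, pooled over libraries), a median of 83.9% lay in the reading frame of the ORF, against 84.0% over all ORFs with counts. The 7 cardiomyocyte markers with an ORF summed to 64058 and 64422 CPM in PE and 57053 and 57065 CPM in control, where CPM is the count scaled to library size with TMM factors. By edgeR's test 2 of them were higher, Nppa at 1.86 and Tnnt2 at 0.17 on the log2 scale. The other 5 were lower, from Myh6 at -1.31 and Ryr2 at -0.87 to Myh7 at -0.06. Among all tested ORFs 21.4% were higher and 21.3% lower. The higher sum in PE comes from Nppa, with 17736 and 17853 CPM in PE and 4968 and 4820 CPM in control. Myh6 had only 0.19 counts per P-site, against a median of 1.16 over all ORFs with counts, so its value is uncertain. Markers of other cells were present too. Fibroblast Pdgfra had 585 and 609 CPM in PE and 836 and 822 CPM in control, and macrophage Cd68 had 91.5 and 94.4 CPM in PE and 138 and 131 CPM in control. In such bulk samples fewer cells of a type and less RNA per cell cannot be told apart. Whether replicates were separate cultures is not stated in the labels, and the p-values then cover only the variation among these 4 libraries, which may be technical.

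Timp1 had the largest increase among the tested members, 3.32-fold higher with PE, while Timp2 and Timp3 were lower. The membrane protease Mmp15, the procollagen proteinase Adamts3, Adamts12 and the ADAMTS-like genes Adamtsl2 and Adamtsl3 were lower by 2.49-fold to 3.66-fold. Mmp3 and Mmp16 were both 2.39-fold higher. Of the 50 members 42 passed the filter on low counts. Tested with edgeR (quasi-likelihood, Benjamini-Hochberg over 12609 ORFs, threshold 0.05), 7 were higher, 22 lower and 13 not past the threshold. Over all tested ORFs 21.4% were higher and 21.3% lower. The share of members that were higher, 16.7%, was thus near that of all ORFs, and the share lower was 52.4%. Changes of at least 1.5-fold that passed were found in 4 members upwards and 10 downwards, against 7.66% and 9.18% of all ORFs. The median log2 fold change was -0.15 over the tested members and 0.00041 over all tested ORFs. One of the 22 lower members, Adamts14, passed the filter through its control libraries alone.

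**Figure D1:**
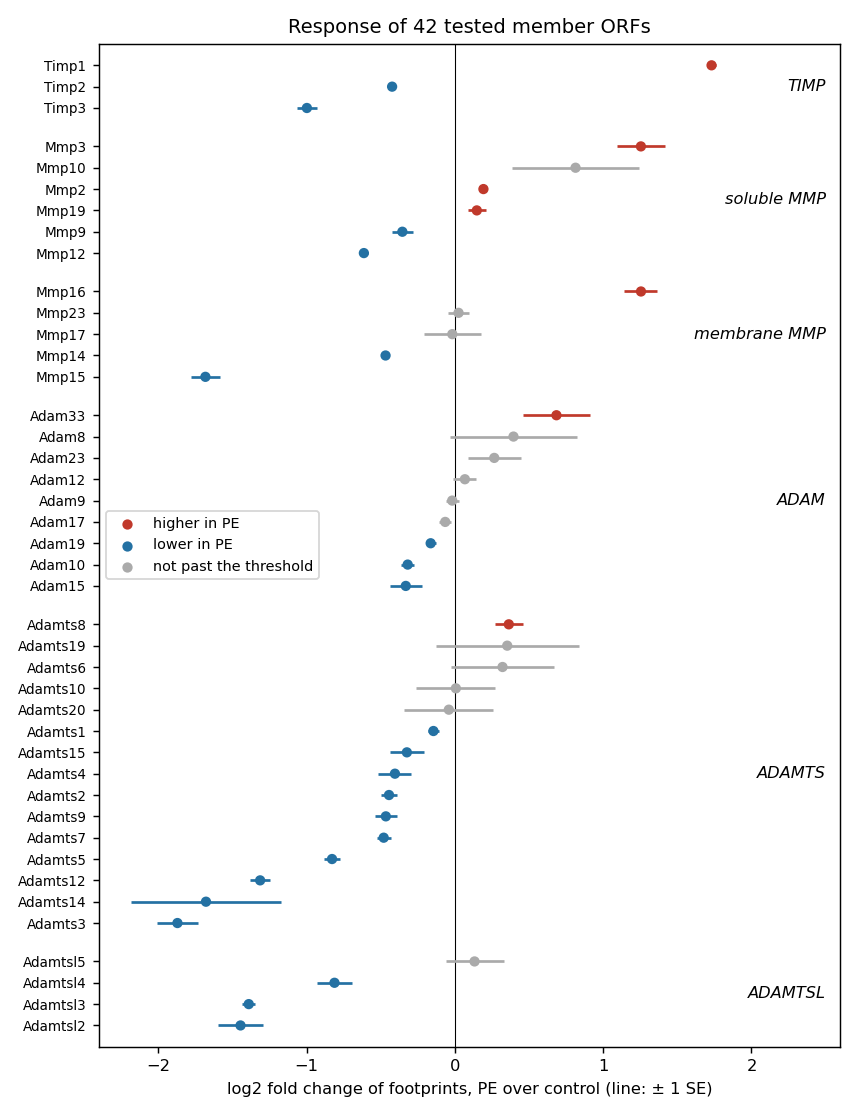
Log2 fold change of footprints (x axis, PE over control) of each of the 42 tested members, grouped by family down the page, with a line of ± 1 SE and the colour giving the edgeR call. Timp1, Mmp3 and Mmp16 lie to the right at 1.73, 1.25 and 1.25, and most ADAMTS and ADAMTS-like genes lie to the left, down to -1.87 for Adamts3.

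The TIMPs did not move together. Timp1, a secreted inhibitor of most soluble MMPs that acts weakly on membrane-type MMPs (Rnor_6.0 chromosome X, 1364837 to 1368610, minus strand, the span of the coding ORF with its introns), had 463 and 473 CPM in PE libraries and 143 and 139 CPM in control libraries. Both PE values stood above both control values, with a log2 fold change of 1.73 ± 0.03 (SE) and an edgeR adjusted p = 4.3e-29. Timp2, which blocks MMPs but also joins Mmp14 in a cell-surface complex that activates pro-Mmp2 (chromosome 10, 107339336 to 107385945), had 524 and 538 CPM in PE and 714 and 711 CPM in control. Its groups did not overlap either, and the log2 fold change was -0.42 ± 0.02. Timp3, which is held in the matrix and also inhibits ADAM17 and the aggrecan-cutting ADAMTS proteases (chromosome 7, 23546699 to 23593845), had 55.2 and 46.0 CPM in PE and 97.5 and 104 CPM in control, 2.00-fold lower with PE (edgeR adjusted p = 3.5e-14). Timp4 was not analysed here.

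Per length of ORF, Timp1 took a larger share of the summed TIMP footprints with PE, and Timp2 and Timp3 smaller ones. Summed over the 3 TIMPs, the level was 1592 and 1615 CPM per kb in PE libraries and 1457 and 1455 CPM per kb in control libraries. Timp1 made up 44.7% and 45.0% of that sum in PE and 15.1% and 14.7% in control. Timp2 made up 49.9% and 50.5% in PE and 74.3% and 74.0% in control, so it stayed the TIMP with the most footprints per kb in each of the 4 libraries. Timp3 held 5.48% and 4.50% in PE and 10.6% and 11.3% in control. The sum over the MMPs was 2219 and 2267 CPM per kb in PE and 2351 and 2369 CPM per kb in control. The ratio of summed TIMP to summed MMP footprints per kb was 0.717 and 0.712 in PE and 0.620 and 0.614 in control. These are ratios of footprints, not of protein or of enzyme activity, and Mmp11 and Mmp28, which had 0 counts, add nothing to them.

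**Figure D2:**
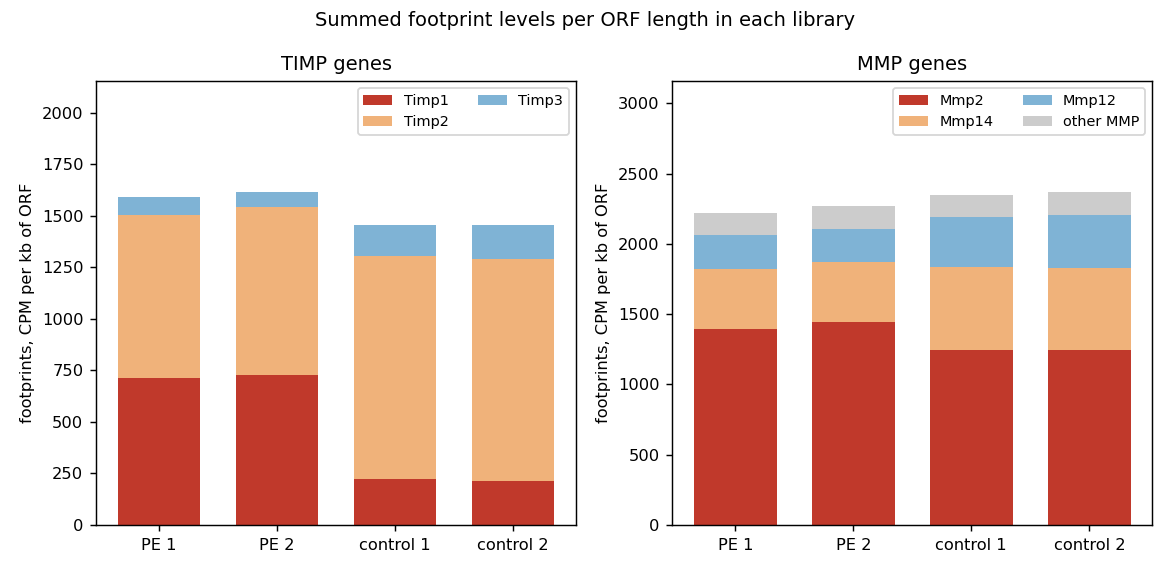
Stacked bars of summed footprint levels (y axis, CPM per kb of ORF) in each library, with TIMP genes on the left and MMP genes on the right. Timp1 fills 44.7% and 45.0% of the TIMP bar in the PE libraries and 15.1% and 14.7% in the control libraries, and Mmp2 fills the largest part of the MMP bar in all 4.

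Among soluble MMPs, Mmp2 (gelatinase A, which cuts denatured and basement membrane collagen) had the highest level of all members. It had 2777 and 2866 CPM in PE and 2470 and 2470 CPM in control. The PE libraries were higher by only 1.14-fold, yet the groups did not overlap, with a log2 fold change of 0.19 ± 0.02 and an edgeR adjusted p = 4.7e-12. Mmp2 formed 62.9% and 63.6% of MMP footprints per kb in PE and 52.8% and 52.4% in control. Mmp9 (gelatinase B, made largely by myeloid cells) had 55.0 and 50.4 CPM in PE and 62.5 and 71.7 CPM in control, a log2 fold change of -0.35 ± 0.07. Both gelatinases thus passed the test, in opposite directions.

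Mmp3 (stromelysin 1, which cuts proteoglycans and activates other pro-MMPs) had 14.1 and 12.9 CPM in PE and 5.85 and 5.49 CPM in control, a log2 fold change of 1.25 ± 0.16 and an edgeR adjusted p = 1.0e-07. Mmp12 (macrophage elastase) had 344 and 342 CPM in PE and 512 and 537 CPM in control, 1.53-fold lower with PE. Among the members the 2 genes are next to each other on chromosome 8, Mmp12 at 5606600 to 5616145 and Mmp3 at 5676665 to 5698237. Their PE libraries fell on opposite sides of control. Mmp10 (stromelysin 2), the next member after Mmp3, had 2.09 and 1.87 CPM in PE and 0.602 and 1.57 CPM in control. Its log2 fold change of 0.81 ± 0.43 did not pass (edgeR adjusted p = 0.13). Mmp3 and Mmp10 shared 34 words of 9 residues, 7.31% of those of Mmp3. Whether their bases match there too, so that footprints are hard to assign, was not tested. Mmp19, a secreted protease of wide distribution, had 70.7 and 69.7 CPM in PE and 63.0 and 63.6 CPM in control. Its log2 fold change of 0.15 ± 0.06 just passed (edgeR adjusted p = 0.048) and lost the call when any 1 of the 4 libraries was left out, with adjusted p from 0.093 to 0.17.

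Footprints of Mmp12 and Mmp9 were lower together with those of macrophage markers. Summed over 8 macrophage genes, all of them detected, the level was 294 and 285 CPM in PE and 458 and 437 CPM in control. By edgeR's test 6 of the 8 were lower and 0 higher, against 21.3% and 21.4% of all tested ORFs. The part of macrophage number in the values of Mmp12 and Mmp9 was not tested.

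Together with Mmp13 and Mmp7, the genes Mmp3, Mmp10 and Mmp12 form a cluster at 5522749 to 5900764 on chromosome 8. The start regions of these 5 are given here because they hold a word for AP-1, the Fos-Jun transcription factor. That of Timp1 is given beside them and holds only a related word. Members with such words went in different directions. Sequences are RefSeq start regions on build GRCr8, from 110 bases before to 10 after the annotated start, 5′ to 3′. Capitals mark TGACTCA or TGAGTCA (1 AP-1 word read on either strand), TATAAA on the gene's strand and, in Timp1 alone, TGAGTAA, a word added after that region had been read.

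Timp1 (chrX:3771113-3771232, minus): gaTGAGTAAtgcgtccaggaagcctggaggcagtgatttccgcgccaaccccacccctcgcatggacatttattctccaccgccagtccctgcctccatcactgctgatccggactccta
Mmp3 (chr8:12925171-12925290, plus): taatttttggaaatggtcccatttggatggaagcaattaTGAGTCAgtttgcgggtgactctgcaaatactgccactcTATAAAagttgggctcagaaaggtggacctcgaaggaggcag
Mmp10 (chr8:12974597-12974716, plus): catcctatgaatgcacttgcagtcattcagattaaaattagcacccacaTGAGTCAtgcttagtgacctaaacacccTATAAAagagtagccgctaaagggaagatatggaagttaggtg
Mmp12 (chr8:12866542-12866661, plus): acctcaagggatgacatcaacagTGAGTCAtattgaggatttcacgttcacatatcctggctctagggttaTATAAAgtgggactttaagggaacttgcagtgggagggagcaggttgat
Mmp13 (chr8:12782719-12782838, plus): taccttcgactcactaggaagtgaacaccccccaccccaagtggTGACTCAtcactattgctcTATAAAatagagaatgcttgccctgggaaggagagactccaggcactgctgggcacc
Mmp7 (chr8:13132933-13133052, plus): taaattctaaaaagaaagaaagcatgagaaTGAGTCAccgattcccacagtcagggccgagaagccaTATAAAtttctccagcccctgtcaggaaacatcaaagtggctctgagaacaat

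All 5 members in the cluster held an AP-1 word 61 to 87 bases before the start and a TATAAA 32 to 47 bases before it. In the full windows of 300 bases (250 before the start and 50 after it) the 2 words occurred together in 0.514% of 33469 RefSeq start regions. The AP-1 word occurred in 4.63% and TATAAA in 8.80%. The 5 regions were printed for holding the AP-1 word, so these shares give scale only and no independent result. Of the 37 members with a RefSeq entry, 6 held the AP-1 word, the 5 of the cluster and Adam19. Of these 6, Mmp3 was higher, Mmp12 and Adam19 were lower, Mmp10 did not pass and Mmp13 and Mmp7 were not tested. Timp1 had no TGACTCA or TGAGTCA in its window. Its TGAGTAA began 108 bases before the start, and that word, on either strand, was present in 2.90% of all windows and in 3 of the 37 members. A word in a sequence is a description and not a bound site.

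Of the 6 membrane-attached MMPs, Mmp14 (a collagenase of the cell surface and the main activator of pro-Mmp2) had the most footprints, with 741 and 747 CPM in PE and 1033 and 1025 CPM in control. The groups did not overlap and the log2 fold change was -0.47 ± 0.02 (edgeR adjusted p = 1.5e-19). Mmp15 (chromosome 19, 10081180 to 10100835), a close relative of Mmp14, had 16.8 and 15.99 CPM in PE and 48.3 and 56.6 CPM in control, 3.21-fold lower with PE (edgeR adjusted p = 7.0e-16). Mmp16 (chromosome 5, 31568848 to 31809030), another transmembrane member, went the other way, with 29.5 and 29.6 CPM in PE and 12.7 and 12.1 CPM in control, a log2 fold change of 1.25 ± 0.11. In the PE libraries Mmp15 stood below Mmp16, at 8.32 and 18.0 CPM per kb on average, and in the control libraries above it, at 26.6 and 7.56 CPM per kb.

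Mmp23, anchored through its amino-terminal end, had 52.1 and 55.4 CPM in PE and 55.3 and 50.7 CPM in control, with groups that overlapped. The glycolipid-anchored Mmp17 had 5.93 and 7.31 CPM in PE and 6.80 and 6.63 CPM in control and did not pass. Mmp24, a membrane-type MMP of the nervous system, had 9 and 8 counts in the PE libraries and 0 in both control libraries. It was below the filter and not tested. Against a floor of 3 counts over the control group, its pooled PE level of 0.70 CPM was 5.98-fold higher. The floor covers counting error in control only and not that of the PE counts, so this fold is no lower bound. Mmp24 shared 76 words of 9 residues with Mmp16, 14.5% of its own. Shared residues need not have the same bases, and whether reads were shared with Mmp16 was not tested.

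**Figure D3:**
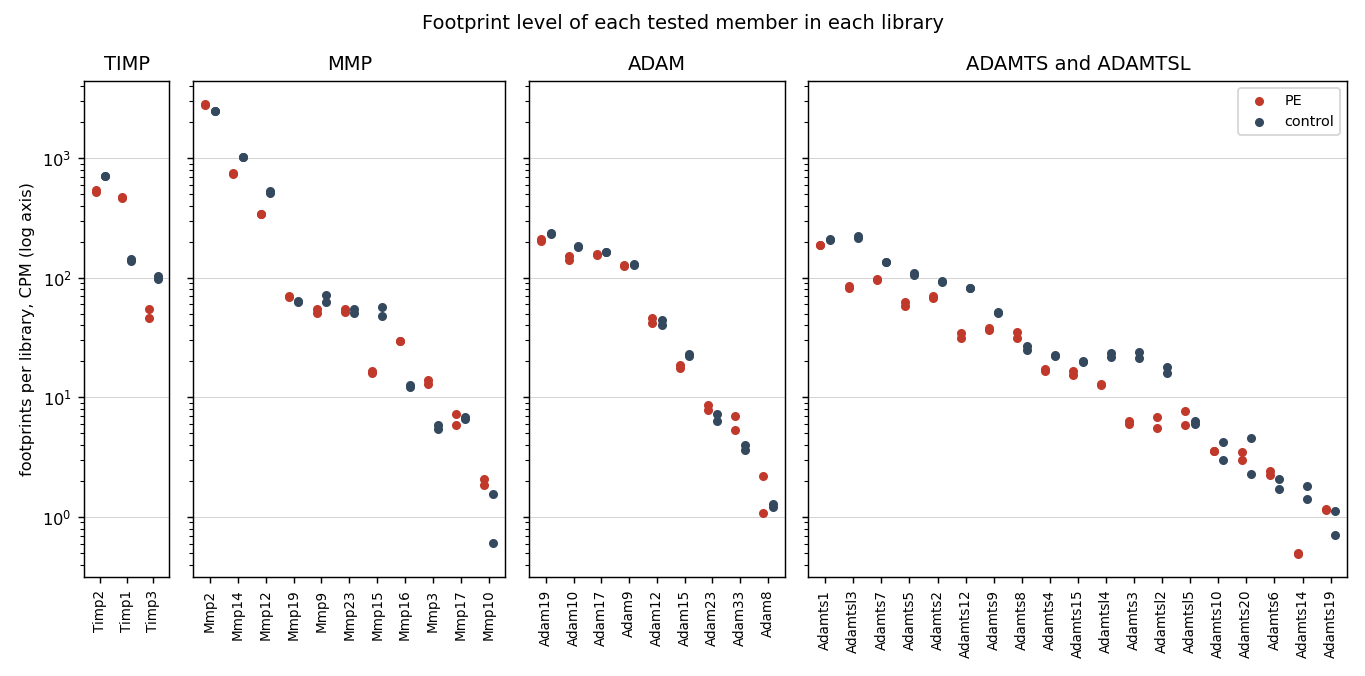
Footprint level of each tested member in each library (y axis, CPM on a log scale), with PE as red points left of the control points for every gene and genes ordered by mean level within a panel. Levels run from 2866 CPM for Mmp2 down to under 1 CPM for Adamts14, and the 2 points of a group lie close together for most genes above 10 CPM.

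Of 9 tested ADAM genes, 1 was higher and 3 lower, and the median log2 fold change was -0.019. Among all tested ORFs 21.4% were higher and 21.3% lower. Adam10, which releases Notch and many other surface proteins, had 153 and 140 CPM in PE and 180 and 184 CPM in control, a log2 fold change of -0.32 ± 0.04 (edgeR adjusted p = 1.9e-07). Adam17, which releases TNF and ligands of the EGF receptor, had 155 and 159 CPM in PE and 165 and 164 CPM in control. All PE values lay below all control values, but the log2 fold change of -0.07 ± 0.04 did not pass (edgeR adjusted p = 0.20). With library totals in place of TMM it did, at -0.11 (edgeR adjusted p = 0.026). Adam9, with 128 and 127 CPM in PE and 131 and 127 CPM in control, and Adam12, with 45.9 and 42.1 CPM in PE and 44.2 and 39.98 CPM in control, overlapped between groups.

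Adam19 (meltrin β, needed for heart valve and septum formation in mice) had 204 and 213 CPM in PE and 236 and 232 CPM in control, 1.12-fold lower with PE. Its call was lost when the trend of fold change with ORF length was removed (edgeR adjusted p = 0.059). Adam15, a protease with an integrin-binding domain, had 18.5 and 17.6 CPM in PE and 22.2 and 23.2 CPM in control. Its log2 fold change of -0.33 ± 0.11 passed, but not without PE replicate 2 (edgeR adjusted p = 0.097) or control replicate 2 (edgeR adjusted p = 0.089). Adam33, an ADAM of mesenchymal cells, was the member of this group that was higher, with 6.93 and 5.36 CPM in PE and 3.61 and 3.99 CPM in control. It had a log2 fold change of 0.68 ± 0.23 and lost its call without PE replicate 1 (edgeR adjusted p = 0.21) or control replicate 1 (edgeR adjusted p = 0.056). Adam23, a neuronal ADAM without protease activity, and Adam8, an ADAM of leukocytes, had log2 fold changes of 0.27 and 0.39 and did not pass.

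Of 15 tested ADAMTS genes 10, with Adamts14 among them, were lower and 1 higher, with a median log2 fold change of -0.40. The shares over all tested ORFs were 21.3% lower and 21.4% higher. Of the procollagen amino-propeptidases, which trim fibrillar procollagens, Adamts2 and Adamts3 were lower. Adamts2 had 67.4 and 70.2 CPM in PE and 92.5 and 94.7 CPM in control, 1.36-fold lower. Adamts3 (chromosome 14, 19866858 to 20065914), which also takes part in activating the lymphatic growth factor VEGF-C, had 6.01 and 6.33 CPM in PE and 23.9 and 21.5 CPM in control. Its log2 fold change of -1.87 ± 0.14 (edgeR adjusted p = 6.0e-13) was the lowest of all tested members. Adamts2 and Adamts3 shared 112 words of 9 residues, 12.4% of those of Adamts3. Whether their bases match there too, so that reads could be assigned to either, was not tested. The other amino-propeptidase, Adamts14, had 6 and 6 counts in PE and 21 and 20 in control. It passed the filter only through the control libraries, so it had to differ. Its log2 fold change of -1.68 ± 0.51 lost its call without PE replicate 2 (edgeR adjusted p = 0.054) or control replicate 1 (edgeR adjusted p = 0.11). With only 0.145 counts per P-site, against a median of 1.16 over ORFs with counts, and a second overlapping annotated ORF, the value of Adamts14 is uncertain.

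Several ADAMTS proteases are known to cut versican or aggrecan. Of these, Adamts1, Adamts4, Adamts5, Adamts9 and Adamts15 were lower, Adamts8 was higher and Adamts20 did not pass. Adamts1 had 187 and 190 CPM in PE and 212 and 206 CPM in control, a log2 fold change of -0.15 ± 0.04 that did not pass once the length trend was removed (edgeR adjusted p = 0.21). Its neighbour on chromosome 11, Adamts5, the main aggrecanase of mouse cartilage, had 58.5 and 62.8 CPM in PE and 111 and 105 CPM in control, 1.78-fold lower with PE (edgeR adjusted p = 6.2e-14). Adamts9 had 36.3 and 38.4 CPM in PE and 51.0 and 52.2 CPM in control, and Adamts4 had 17.4 and 16.5 CPM in PE and 22.1 and 22.7 CPM in control. Both passed, with log2 fold changes of -0.47 ± 0.07 and -0.40 ± 0.11.

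Adamts8 and Adamts15 lie side by side on chromosome 8 (31979891 to 32036901) with 18528 bp between their ORFs, and they went in opposite directions. Adamts8 had 31.6 and 35.0 CPM in PE and 27.1 and 24.8 CPM in control, 1.29-fold higher with PE (edgeR adjusted p = 0.0021). Adamts15 had 15.3 and 16.6 CPM in PE and 20.0 and 20.0 CPM in control, a log2 fold change of -0.32 ± 0.12. The call of Adamts15 was lost without PE replicate 1, control replicate 1 or control replicate 2 (edgeR adjusted p of 0.16, 0.055 and 0.079) and after removal of the length trend (edgeR adjusted p = 0.10). That of Adamts8 was kept in these fits.

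Adamts7 and Adamts12, which both cut cartilage oligomeric matrix protein, were lower. Adamts12 (chromosome 2, 61039311 to 61337155) had 34.4 and 31.3 CPM in PE and 81.8 and 81.5 CPM in control, a log2 fold change of -1.31 ± 0.07. Adamts7 had 96.7 and 98.0 CPM in PE and 135 and 136 CPM in control, 1.40-fold lower. The fibrillin-linked Adamts6 and Adamts10, Adamts19 and Adamts20 did not pass, with log2 fold changes of 0.32, 0.0064, 0.35 and -0.041 and standard errors of 0.27 to 0.48. Adamts10 and Adamts19 had 0.394 and 0.455 counts per P-site, and in Adamts19 only 49.1% of P-sites were in frame.

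Of the 4 ADAMTS-like genes 3 were lower, against 21.3% of all tested ORFs. Adamtsl3 (chromosome 1, 144239171 to 144559033) had 86.0 and 82.7 CPM in PE and 216 and 225 CPM in control, 2.62-fold lower with PE (edgeR adjusted p = 7.9e-23). Adamtsl2, a microfibril protein that binds a carrier of latent TGF-β and is mutated in geleophysic dysplasia in humans, had 6.85 and 5.60 CPM in PE and 16.01 and 17.8 CPM in control, a log2 fold change of -1.45 ± 0.15. Adamtsl4, which binds fibrillin in the suspensory fibres of the lens, had 12.7 and 13.0 CPM in PE and 23.4 and 21.8 CPM in control, 1.76-fold lower with PE. For these genes each PE value lay below both control values. Adamtsl5 had 5.93 and 7.63 CPM in PE and 6.02 and 6.34 CPM in control, with overlapping groups.

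Fibroblast markers moved with these decreases in part. Summed over 8 genes, the level was 18548 and 18753 CPM in PE and 26977 and 27114 CPM in control. Of 7 tested, 5 were lower by edgeR's test, against 21.3% of all tested ORFs. The 5 included Postn at -1.06 and Pdgfra at -0.47 on the log2 scale. Dcn was higher at 0.70, and Lum, at -0.01, did not pass. Col1a2 had 0, 0.162, 0 and 0 CPM in PE replicates 1 and 2 and control replicates 1 and 2 and 1.3e-05 counts per P-site, so it gives no level. Endothelial markers summed to 129 and 136 CPM in PE and 230 and 221 CPM in control, with 4 of 6 tested lower. Smooth muscle and pericyte markers summed to 1854 and 1871 CPM in PE and 2159 and 2194 CPM in control, with 6 of 7 lower, and 1, Cnn1, higher. Epicardial or mesothelial markers summed to 127 and 124 CPM in PE and 181 and 198 CPM in control, with 2 of 4 lower. Their part in the lower counts of the members was not tested.

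Long ORFs had lower fold changes over the whole table, and many ADAMTS genes are long. The trend over all tested ORFs was 0.086 on the log2 scale at the length of Timp1 (651 nt), -0.059 at that of Adam10 (2247 nt) and -0.18 at that of Adamtsl3 (5037 nt). With the trend removed, 7 members were higher and 18 lower by edgeR's test. The larger changes differed little, with log2 fold changes of -1.14 for Adamts12, -1.79 for Adamts3, -1.21 for Adamtsl3 and 1.64 for Timp1. Those that no longer passed were Adam15, Adam19, Adamts1 and Adamts15.

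**Figure D4:**
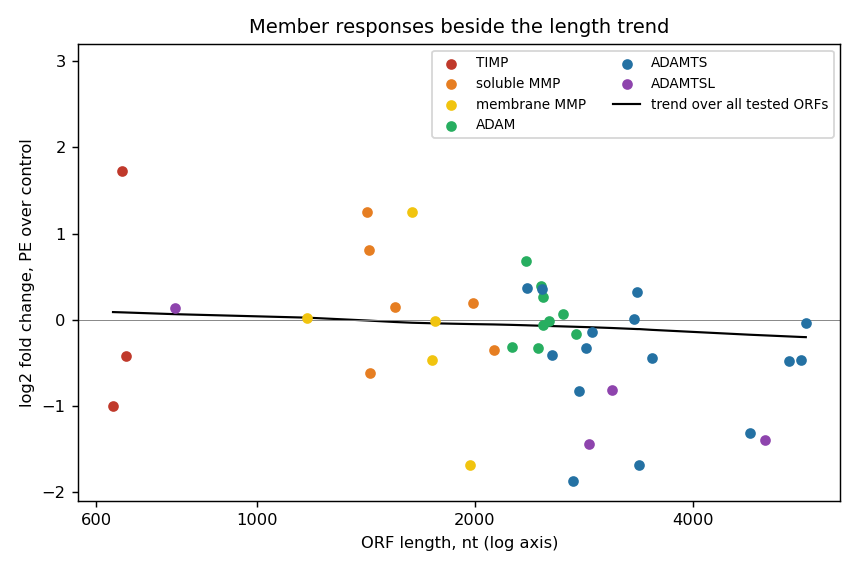
Log2 fold change (y axis, PE over control) of each tested member against the length of its ORF (x axis, nt on a log scale), coloured by family, with the trend over all tested ORFs as a black line. The line drops by less than 0.3 across the members' lengths, while members lie between -1.87 and 1.73.

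Sequence features of the encoded proteins differed by family. Members were taken by gene symbol, and symbols largely follow such features, so these counts describe the families and are no independent result. The histidine signature that binds the catalytic zinc was found in the deposited protein sequences of all 16 MMPs, 15 of 16 ADAMTS and 8 of 11 ADAM genes, and in 0 of 4 ADAMTS-like and 0 of 3 TIMP genes. The ADAMs without it were Adam4, Adam22 and Adam23, and the ADAMTS gene without it was Adamts14. The strict cysteine switch that keeps pro-MMPs inactive was found in 8 of 16 MMPs, 5 soluble and 3 membrane-attached. A basic site of the kind furin cuts was found in 5 of 6 membrane-attached and 2 of 10 soluble MMPs.

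Partner genes were read from the same test. Of 14 tested regulators of these proteases 6 were higher and 2 lower, against 21.4% and 21.3% of all tested ORFs. The median log2 fold change of the regulators was 0.13. Furin, the convertase that removes the propeptide of membrane-type MMPs, ADAMs and ADAMTS proteases, had 130 and 129 CPM in PE and 90.7 and 96.1 CPM in control, and the log2 fold change was 0.47 ± 0.05. The related convertase Pcsk5 was lower, with 36.7 and 42.5 CPM in PE and 59.9 and 61.6 CPM in control. Tspan14 and Tspan5, tetraspanins that guide ADAM10 to the cell surface, rose by 0.44 and 0.45 on the log2 scale, beside the lower Adam10. The inhibitor Tfpi2 had 4.01 and 3.33 CPM in PE and 1.205 and 1.43 CPM in control. Spock2 had 8.85 and 9.74 CPM in PE and 4.30 and 4.49 CPM in control, a log2 fold change of 1.08 ± 0.19. Reck, a membrane-anchored MMP inhibitor, had 46.9 and 47.8 CPM in PE and 45.7 and 48.2 CPM in control and did not pass. Lrp1, the receptor that clears many proteases and their inhibitors, fell by 0.25, and Bsg (EMMPRIN, an inducer of MMPs) rose by 0.21. A2m and Tspan17 were listed with 0 counts.

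The plasminogen system activates several pro-MMPs, and its listed genes include both activators and inhibitors. Plasminogen itself (Plg) had 0.418 and 0.162 CPM in PE and 0 and 0.071 CPM in control and was not tested. Of 6 tested genes 5 were higher, the inhibitor Serpine2 among them, and 1 was lower. Among all tested ORFs 21.4% were higher and 21.3% lower. Serpine2 (protease nexin 1), an inhibitor of thrombin and of plasminogen activators, had 272 and 259 CPM in PE and 105 and 106 CPM in control, a log2 fold change of 1.33 ± 0.04. The activator Plau (urokinase) had 25.4 and 25.9 CPM in PE and 55.9 and 57.3 CPM in control, while the activator Plat (tissue type) had 203 and 216 CPM in PE and 177 and 166 CPM in control. Plau was lower with a log2 fold change of -1.14 ± 0.08 and Plat higher with 0.29 ± 0.04. The urokinase receptor Plaur rose by 0.43 and the plasminogen-binding Anxa2 by 0.74.

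Substrates were read in the same way. The versican gene Vcan, a proteoglycan cut by several ADAMTS proteases, had 326 and 336 CPM in PE and 144 and 145 CPM in control, a log2 fold change of 1.19 ± 0.03. The procollagen genes Col1a1 and Col3a1 had log2 fold changes of -0.59 and -1.72, in the same direction as Adamts2 and Adamts3. All 3 tested genes of the astacin procollagen proteinases and their enhancer were lower, Bmp1 by 0.20, Pcolce by 0.40 and Tll1 by 0.66 on the log2 scale. Of 13 tested genes whose products ADAM10 or ADAM17 release, 6 were higher and 6 lower, against 21.4% and 21.3% of all tested ORFs. The EGF receptor ligands Ereg, Tgfa and Hbegf rose by 1.80, 1.35 and 0.97, and the ErbB ligand Nrg1 and the receptors Tnfrsf1b and Il6r had log2 fold changes of -1.001, -0.88 and -0.82. Areg, at 0.47 ± 0.20, did not pass (edgeR adjusted p = 0.060).

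**Figure D5:**
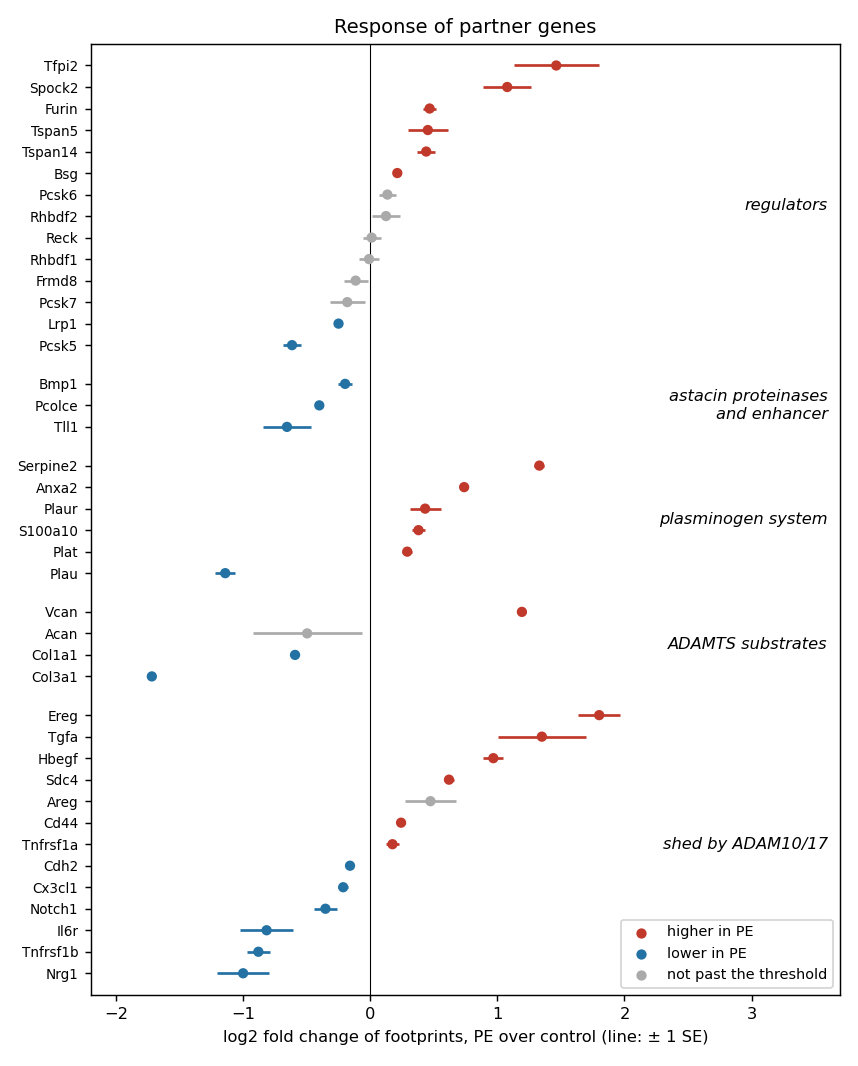
Log2 fold change of footprints (x axis, PE over control, line ± 1 SE) of tested partner genes, grouped by list down the page and coloured by edgeR call. In the plasminogen system 5 of 6 genes lie to the right and Plau lies at -1.14, and among ADAMTS substrates Vcan lies at 1.19 and Col3a1 at -1.72.

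The annotation lists 12 further ORFs on 9 member genes, of which 6 were tested. Of these, 3 passed. A short ORF of 222 nt that overlaps the end of the Mmp16 coding sequence had 45 and 39 counts in PE and 13 and 28 in control, a log2 fold change of 1.12 ± 0.34 in the direction of Mmp16, with which it shares bases. An upstream ORF of Adamts12 (54 nt) had 11 and 2 counts in PE and 14 and 22 in control, and a downstream ORF of Adamtsl3 (75 nt) had 0 and 9 counts in PE and 15 and 19 in control. Their edgeR adjusted p were 0.048 and 0.024, but the ORF of Adamtsl3 passed the filter on low counts through its control libraries alone, so that its difference is no independent result. In both ORFs the PE replicates differed widely. Downstream ORFs of Adamts3 and Adamts19 and an upstream ORF of Adamts9 had log2 fold changes of -1.08, 0.99 and -1.08 and did not pass.

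Among 883 annotated ORFs with a mean level within 2-fold of that of Timp1 and at least 20 counts on average, those nearest to it in log2 fold change over the 4 libraries were Fbln2, Lbp, Sulf1, Sfrp1 and Cyp51. The nearest, the matrix protein fibulin 2 (Fbln2), had 711 and 729 CPM in PE and 223 and 226 CPM in control, a log2 fold change of 1.68. The others lay between 1.498 and 1.58.

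The 8 members that were not tested were Adam22, Adam4, Adamts13, Mmp7, Mmp11, Mmp13, Mmp24 and Mmp28, with 0 to 18 counts per library. Mmp13 (collagenase 3) had 7 and 16 counts in PE and 7 and 10 in control, and Mmp7 (matrilysin) had 3 and 10 in PE and 9 and 18 in control. All 8 fell below the filter on low counts, so whether they differed was not tested in the main edgeR fit.

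In the authors' deposited table of their DESeq2 comparison, 44 members had an adjusted p, and 5 were higher and 18 lower at 0.05. The 6 members that passed here and not there were Adam15, Adam33, Adamts4, Adamts14, Adamts15 and Mmp19, and 0 passed there and not here. The same 6 did not pass when the counts were tested with DESeq2 here, at adjusted p from 0.069 (Adamts4) to 0.27 (Mmp19). For no member past the threshold in both did the direction differ.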

How the data were processed

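The authors deposited raw counts of footprints for 18847 ORFs in each of 4 libraries, and an ORF annotation. The submitters' processing notes name the genome Rnor_6.0, STAR 2.4.2a, Bowtie 1.1.2 and cutadapt 2.0. How ORFs were called and counted is not given in the sources used here. Per the file headers, the annotation holds the authors' DESeq2 log2 fold change with its p-value and adjusted value, a normalized mean count (a coverage-like signal deposited by the authors, not used here), and P-sites per frame pooled over libraries. Groups come from the sample titles, with which the treatment labels of each sample match, although the protocol note of the controls also names PE. Unused per-sample columns numbered 0.

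After filterByExpr and TMM scaling (factors 0.982 to 1.02), 12609 ORFs were tested by the robust quasi-likelihood method of edgeR 4.0.16 in R 4.3.3, with no replicate term, after the code was tested on simulated data. Standard errors are the log2 fold change over the square root of F. Within groups, replicates were farther apart than sampling noise (chi-square over its degrees of freedom 1.60 in PE and 1.62 in control). The common biological coefficient of variation was 2.18%, so small changes pass. Values in every library are given for TIMPs, for members past the threshold and for those with at least 50 CPM, with a few others shown. Members and lists were chosen with earlier results of these data known. In the plasminogen list 1 gene is not reported here. Alternatives were DESeq2 1.42.0, other scalings and filters, a replicate term, removal of a lowess length trend, and leaving out libraries.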

Additional observations from a re-analysis of the deposited data

Results flagged for a closer look

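Mmp11 (stromelysin 3) and Mmp28 (epilysin) had 0 counts in all 4 libraries, yet the deposited annotation lists 1187 and 63 P-sites for their ORFs, pooled over libraries and with 86.4% and 90.5% in frame. Both lie on unplaced scaffolds of Rnor_6.0. Their response to PE could not be read from the counts, and the pooled P-sites do not give it by library. Of 15034 annotated ORFs, 1807 had 0 counts.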

How the results depend on the processing

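Among members, 29 calls (7 higher, 22 lower) became 23 with DESeq2 and 10 (3 higher, 7 lower) in a test against a 1.5-fold change, and 25 to 27 without 1 library (5 to 7 higher, 20 to 21 lower). Over all ORFs, 5386 calls became 3418 with DESeq2 (1712 higher, 1706 lower) and 1009 against a 1.5-fold change (459 higher, 550 lower). With library totals in place of TMM the split was 2334 higher and 3093 lower. With a replicate block 29 members and 5447 ORFs were called. Same-numbered libraries did not deviate together (r = 0.012), so the numbers were not taken as pairs. With the length trend removed, direction changed for 5 tested members near 0 that had no call: Adam17 had 0.0041, Adam9 0.0534, Mmp23 -0.0005, Adamts20 0.16 and Mmp17 0.023. Mmp23 also had -0.0187 with library totals and -0.0420 to 0.0793 without 1 library, below 0 without control replicate 2 or PE replicate 2. Of 32 named members, 10 kept direction and call in all 12 alternative fits. In the test against a 1.5-fold change alone 19 of these 32 lost their call, and with DESeq2 6 did. With a replicate block all 32 kept direction and call. Taking the longest annotated ORF of each gene left 29 calls. Members under about 1 CPM are limited by depth.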
